A study of Homo sapiens with 6 samples.

Results

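The table was searched for chemokines, the small secreted proteins that direct cell migration, for their receptors, and for interleukins and their receptors. All rows whose symbol starts with CXCL, CCL, CX3C, CXCR or CCR, or with IL followed by a digit, were taken, which gave 27 of 770 genes: 12 chemokines, 5 chemokine receptors, 7 interleukins or interleukin antagonists and 3 interleukin receptor chains. HCT116 cells are an established line of human colorectal cancer. The isogenic HCT116 p21-/- line carries a disrupted CDKN1A, whose product p21 inhibits the cell cycle. There were 3 biological replicates of HCT116 WT and 3 of HCT116 p21-/- cells, none of them treated, and 100 ng of total RNA from each was counted on the NanoString PanCancer Progression Panel, where a fluorescent barcode is counted for each captured transcript. How many knockout clones the p21-/- samples came from is not given in the sources used here, and the methods name DMEM for the p21-/- cells and RPMI for the WT cells whereas the sample labels name RPMI for both, so medium and genotype cannot be told apart if the methods apply.

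Chemokines carry either a pair of adjacent cysteines (the CC family), cysteines separated by 1 residue (CXC) or by 3 (CX3C), and act on receptors coupled to G proteins. Interleukins act on receptor chains that signal through JAK kinases and STAT factors, or, for the IL-1 family to which IL-18 belongs, through the NF-kB pathway. In the intestine, epithelial cells are a known source of IL-18 and of CXCL8, also called interleukin 8, while many of the other genes are mainly products of leukocytes or stromal cells.

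Values are normalized counts. Low values of each sample had been set to a floor, the smallest value over the gene rows, which lay at 29.81 to 34.94 in the WT and at 25.66 to 33.84 in the p21-/- samples and matched the negative controls of the sample (mean of 8, plus 2 SD). Totals over genes above the floor were 867421 to 1187904 barcode counts for WT and 1125126 to 1335467 for p21-/- samples. CDKN1A, which checks the labels, was at 4701 ± 834 in WT cells and 419 ± 37.0 in p21-/- cells (3 samples each, ± SD). Of the epithelial markers in the table, 9 of 9 were above the floor in all WT samples and 8 of 9 in all p21-/- samples. The summed level of these markers was 31677 to 36010 in WT and 17022 to 17745 in p21-/- samples, and its part in the results was not tested. Of the 4 leukocyte markers measured, 1 was above the floor in all samples of each line, their summed level was 194.9 to 304.8 in WT and 139.6 to 152.2 in p21-/- samples, and PTPRC, which encodes CD45, and ITGAM had floor values throughout.

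Of the chemokine and interleukin genes, 8 of 27 (29.6%) were above the floor in every sample of at least 1 line, as were 67.7% of all genes of the table. Only 4 of 27 genes were above the floor in all 6 samples (CXCL8, IL10RA, IL15 and IL18), which is 14.8%, where the same held for 446 of 770 genes of the table, or 57.9%. Another 4 genes (CXCL17, CXCR3, CXCR4 and IL11) were above it in all 3 p21-/- samples but not in all WT samples, which is 14.8% against 7.27% of the table. A further 7 (CCL5, CCR2, CCR3, CXCL10, CXCR2, IL1A and IL6) were above it in some samples without covering a line. The remaining 12, which is 44.4% of the genes against 21.7% of the table, were at the floor in all 6 samples. These were CCL7, CCL8, CCL11 and CCL21 of the CC family, CX3CL1, the CXC chemokines CXCL11, CXCL12 and CXCL13, the cytokine IL1B, the antagonist IL1RN and the receptors IL1RL1 and IL13RA2. Above 2 times the sample floor, 3 genes remained in each line: CXCL8, IL15 and IL18 in all WT samples, and CXCR4, IL15 and IL18 in all p21-/- samples. That is 11.1% in each line, against 56.0% of the table. Counts above the floor favour the p21-/- samples. There the lowest value above the floor of any gene was 26.4 to 36.7, against 39.3 to 45.2 in the WT samples. Above 44.9, the highest level a floored value could have had, 4 of the 27 genes (14.8%) remained in each line, against 59.7% of the table. These were CXCL8, IL10RA, IL15 and IL18 in all WT samples, and CXCR4, IL10RA, IL15 and IL18 in all p21-/- samples.

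Between the lines, 3 genes differed. IL18 and CXCL8 were lower and CXCR4 was higher in p21-/- cells, with an adjusted p below 0.05 in limma on log2(value + 1), adjusted by Benjamini-Hochberg over 770 genes. The 1 gene called higher compares with 21.8% of the table called higher, and the 2 called lower with 26.0% called lower, so 3.7% and 7.41% of the 27 genes were called. These shares include genes floored throughout, 44.4% of the 27 and 21.7% of the table, of which 0 were called. A fit limited to the 446 genes without a floored sample called 141 higher and 183 lower. Only 4 of the 27 were in it, with 2 called lower and 0 higher. Whether detected genes of the 27 differed less often than others was not tested. The median log2 fold change of the 27 genes was -0.12, and that over 770 genes was also -0.12, the value that the unequal floors alone give. An exact permutation test of 1 gene with 3 samples in each line gives no two-sided p below 0.1. The positive controls, spiked into each sample, had geometric means of 1601 to 1861 raw counts for WT and 1102 to 1261 for p21-/- samples, and their part in the differences was not tested. A lower level in every cell and a loss from a share of the cells cannot be told apart in RNA of whole cultures.

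**Figure D1:**
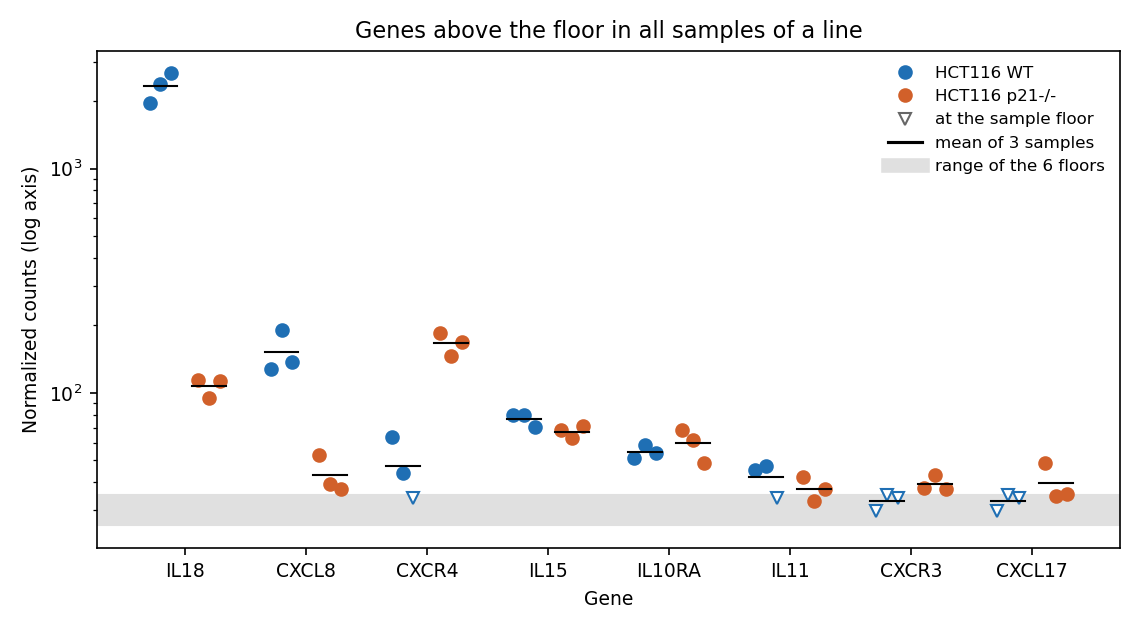
Normalized counts (log axis) of the 8 genes detected in every sample of at least 1 line, with a point for each of the 3 WT and 3 p21-/- samples, a line at each mean open triangles for samples at the floor and a grey band over the range of the 6 floors. IL18 and CXCL8 points of p21-/- cells lie below all WT points, and CXCR4 points lie above them.

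Among the chemokines, CXCL8, which attracts neutrophils through CXCR1 and CXCR2, was the only one above the floor in WT samples. Its values were 128, 190 and 137 normalized counts for WT replicates 1, 2 and 3, against 52.9, 39.1 and 37.2 for p21-/- replicates 1, 2 and 3. Every p21-/- value was under every WT value, and the p21-/- values stood at 1.18 to 1.56 times the floor of their sample. The mean was 152 ± 33.4 in WT and 43.1 ± 8.55 in p21-/- cells (3 samples each, ± SD), a log2 fold change of -1.79 ± 0.20 (SE; limma 95% interval -2.21 to -1.36, adjusted p = 1.26e-06). In barcode counts, CXCL8 had 85, 169 and 117 in the WT samples and 49, 43 and 42 in the p21-/- samples, where the highest negative control of the p21-/- samples was 33, 25 and 31. CXCL8 thus remained above each negative control of its sample in p21-/- cells, but so close to the floor that the log2 fold change was -3.23 when the floor was subtracted from all values.

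The region just before the CXCL8 start is shown because its letters include elements of the factors listed further down. The 150 bases, from RefSeq on GRCh38.p14, plus strand, chr4:73740419-73740568, are printed from 5′ to 3′ with the matches in capitals.
CXCL8: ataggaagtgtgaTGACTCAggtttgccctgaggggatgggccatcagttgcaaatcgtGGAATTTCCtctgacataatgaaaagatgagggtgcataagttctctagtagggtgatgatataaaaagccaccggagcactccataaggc
The first run of capitals, 137 to 131 bases before the start, matched the AP-1 motif TGANTCA, which was held by 6.57% of 35116 promoter windows of 250 bases searched on both strands. The other, GGAATTTCC at 91 to 83 bases before the start, is a kB-like element that was searched after this sequence had been read, and 0.413% of the windows held it. The NF-kB consensus had no match in the 250 bases before the CXCL8 start, and 5.21% of the windows held one. Promoters of 20 of the 27 genes were in the table used, of which 9 held the AP-1 motif (CCL7, CCR2, CXCL8, CXCL11, IL1A, IL1RL1, IL1RN, IL10RA and IL11), 4 the NF-kB consensus (CCR3, CXCL10, CXCL11 and IL6) and 3 the kB-like element (CXCL8, CXCL10 and CXCL11). A gene was counted if any of its windows matched, so these counts of genes cannot be set against the shares of single windows. These matches describe letters and were not tested for binding.

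CXCL17, a chemokine of mucosal tissues, had floor values in every WT sample and 48.6, 34.6 and 35.4 normalized counts for p21-/- replicates 1, 2 and 3. Its log2 fold change was 0.25 (limma 95% interval -0.09 to 0.59, adjusted p = 0.257), and 3.20 with the floor subtracted, where all WT values become 0 and the gene was called higher (adjusted p = 0.00443). No fold can be given, because detection began at different levels in the lines. The lowest value above the floor of any gene was 45.2, 39.3 and 39.8 in the WT samples but 36.7, 26.4 and 31.9 in the p21-/- samples, so that 2 of the 3 CXCL17 values of p21-/- cells would have been listed as floor in every WT sample. CXCL10, an interferon-induced ligand of CXCR3, was above the floor in 1 p21-/- sample at 28.2, and CCL5, a chemokine for T cells and monocytes, in 1 at 37.8. Neither was above it in a WT sample.

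Of the chemokine receptors, CXCR4, the receptor of CXCL12, was higher in p21-/- cells. WT replicates 1 and 2 had 63.3 and 43.8 normalized counts and WT replicate 3 was at its floor of 33.8, whereas p21-/- replicates 1, 2 and 3 had 186, 147 and 168. The lines did not overlap, and the p21-/- values were 5.35 to 5.71 times the floor of their sample. With the floored WT sample set at the highest level it could have had, the geometric mean of p21-/- cells was 3.47 times that of WT cells. The log2 fold change as deposited was 1.85 ± 0.213 (SE; limma 95% interval 1.39 to 2.30, adjusted p = 1.84e-06). Subtracting the floor left WT replicate 3 at 0 and gave 4.29 (standard error 1.41), which no longer passed, with an adjusted p of 0.0679. The CXCR4 ligand CXCL12 was at the floor in all 6 samples.

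CXCR3, which binds CXCL10 and CXCL11, had floor values in every WT sample and 37.8, 42.8 and 37.2 normalized counts for p21-/- replicates 1, 2 and 3. These are 35, 47 and 42 barcode counts, next to highest negative controls of 33, 25 and 31. No value reached the 45.2 at which detection began in WT replicate 1. Only that of p21-/- replicate 2 exceeded the 39.3 and 39.8 of WT replicates 2 and 3. The log2 fold change of 0.25 (95% interval -0.05 to 0.55) had an adjusted p of 0.181 in limma, and it passed 0.05 with 2 of 4 other scalings and with the floor subtracted. CXCR2, the receptor of CXCL8, and CCR2, a receptor on monocytes, were above the floor in 1 p21-/- sample each, both at 39.9. CCR3, the eotaxin receptor, was above the floor in 2 p21-/- samples at 27.3 and 34.5. No WT sample was above the floor for these 3 receptors. Both CCR3 values lie under the levels at which detection began in every WT sample. The 39.9 of CXCR2 and CCR2 lies under that of WT replicate 1.

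**Figure D2:**
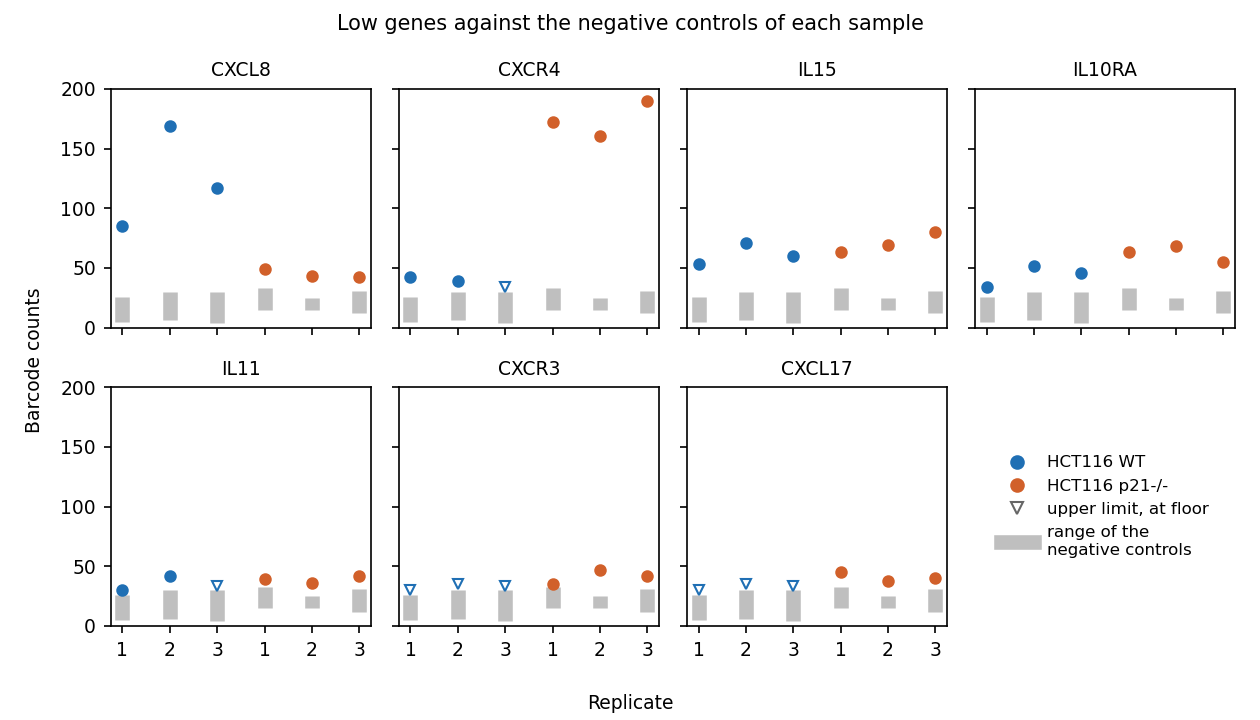
Barcode counts, without normalization, of the 7 low genes by replicate, WT in blue and p21-/- in orange, with grey bars for the range of the 8 negative controls of each sample and open triangles for the upper limit of a floored sample. CXCR4 of p21-/- cells (161 to 190) and CXCL8 of WT cells (85 to 169) stand well clear of the controls, while IL11, CXCR3 and CXCL17 stay at 47 or below.

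Among the interleukins, IL18, an IL-1 family cytokine that is made as a precursor and cleaved by caspase-1, had the largest difference of the 27 genes. WT replicates 1, 2 and 3 had 1968, 2388 and 2662 normalized counts, and p21-/- replicates 1, 2 and 3 had 114, 94.7 and 112. All p21-/- values lay far below the lowest WT value, and still stood at 3.38 to 3.69 times the floor of their sample. The mean of p21-/- cells was 4.58% of that of WT cells, with a log2 fold change of -4.43 ± 0.134 (SE; limma 95% interval -4.72 to -4.14, adjusted p = 1.9e-13). Among 446 genes without a floored sample, this was the second lowest log2 fold change. In barcode counts IL18 had 1306, 2126 and 2276 in WT and 106, 104 and 127 in p21-/- samples, all above the highest negative control of any sample, 33.

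IL15, which sustains natural killer cells and memory T cells, was above the floor in every sample. It had 79.9, 79.8 and 70.2 normalized counts for WT replicates 1, 2 and 3 and 68.0, 62.8 and 70.8 for p21-/- replicates 1, 2 and 3. The ranges overlapped, and the log2 fold change of -0.19 (95% interval -0.53 to 0.16) had an adjusted p of 0.45 in limma. IL11, a cytokine that signals through gp130, had 45.2 and 47.2 in WT replicates 1 and 2, was at the floor in WT replicate 3, and had 42.1, 32.8 and 37.2 in the p21-/- samples. Its log2 fold change was -0.16 (limma 95% interval -0.52 to 0.20, adjusted p = 0.495). IL1A, an alarmin of epithelial cells, was above the floor in 1 WT sample at 45.6 and in 2 p21-/- samples at 36.7 and 39.1. IL6, the main cytokine of the acute phase response, was above it in 1 p21-/- sample at 26.4.

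The only interleukin receptor chain above the floor was IL10RA, the ligand-binding chain of the IL-10 receptor. It had 51.2, 58.4 and 53.8 normalized counts for WT replicates 1, 2 and 3 and 68.0, 61.9 and 48.7 for p21-/- replicates 1, 2 and 3. The p21-/- samples spanned the WT range on both sides. The log2 fold change was 0.11 (limma 95% interval -0.25 to 0.48, adjusted p = 0.59).

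The authors' scaling between samples was set against 4 others, since it affects genes of small difference. IL18 stayed between -4.80 and -4.16 on the log2 scale, CXCL8 between -2.15 and -1.58, and CXCR4 between 1.48 and 2.10, with each called under all 4. In the deposited values the geometric mean of 31 housekeeping candidates was 980 to 1022 in the WT and 1287 to 1301 in the p21-/- samples. Scaling to these 31 housekeeping candidates moved the median log2 fold change of all genes from -0.12 to -0.48, and the share of calls that were higher from 45.7% to 15.6%. Under it, IL10RA, CXCR3 and CXCL17 turned negative, at -0.25, -0.11 and -0.12, and IL15 and IL11 passed 0.05 as lower, at -0.55 and -0.52. Median scaling, quantile normalization and a trimmed mean of M values gave 59.8%, 58% and 55.7% of calls higher. Median scaling called CXCL17 (0.45) and CXCR3 (0.46) higher, and no direction can therefore be given for these 5 genes.

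**Figure D3:**
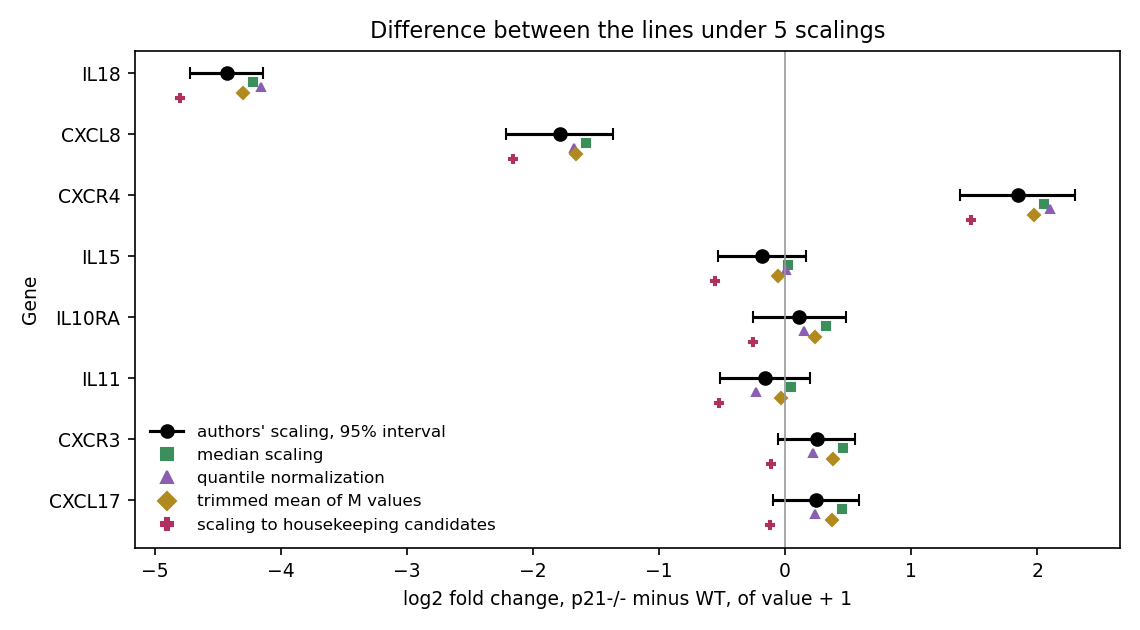
Log2 fold change, p21-/- minus WT, of value + 1 for 8 genes: black points with 95% intervals from limma for the authors' scaling, and coloured marks for 4 other scalings. IL18, CXCL8 and CXCR4 keep clear of 0, and the other 5 have marks on both sides of it.

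Genes that act with these cytokines were counted from lists of related receptors, transducers, processing enzymes and transcription factors. Of 144 listed genes 28 were in the table, and of these 6 were called higher, 10 lower, 5 were above the floor in at least 1 sample without a call and 7 were at the floor in all 6 samples, where 21.8% of the 770 genes were called higher and 26.0% lower. Among the 7 related cytokines and receptors none was called. TNFRSF1A, the main TNF receptor, was at 2517 ± 326 normalized counts and LIFR, the receptor for leukemia inhibitory factor, at 437 ± 27.9 in WT cells (± SD of 3 samples each). TNF, IFNG, TNFSF10, TNFSF13 and CSF2RB were at the floor in all samples.

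Of the transducers of interleukin receptors, STAT3, which acts downstream of IL-6 family and IL-10 receptors, was lower in p21-/- cells. It fell from 1557, 1875 and 1823 normalized counts for WT replicates 1, 2 and 3 to 1175, 1204 and 1205 in the p21-/- samples, with no overlap and a log2 fold change of -0.55 ± 0.0949 (SE, limma adjusted p = 0.000131). Under the 4 other scalings STAT3 lay between -0.92 and -0.33 and kept its call. In the NF-kB list, NFKB1, encoding the p105 precursor of an NF-kB subunit, and MAP3K7, encoding the kinase TAK1 of the IL-1 receptor pathway, were called higher. NFKB1 rose from 425 ± 72.9 to 613 ± 24.2 (± SD of 3 samples each), a log2 fold change of 0.54 ± 0.131 (SE, limma adjusted p = 0.00238), and MAP3K7 had 0.31 ± 0.0986 (SE, limma adjusted p = 0.0143). Scaling to housekeeping candidates ended both calls, with 0.17 for NFKB1 and -0.06 for MAP3K7, and MAP3K7 also lost the call without p21-/- replicate 1 (adjusted p = 0.0593) and was 0.20 without WT replicate 1. MAP3K7 lost it too with a constant prior variance (adjusted p = 0.0619), an ordinary linear model (0.114), the floor subtracted (0.0751) and a common floor (0.0766).

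Of the processing genes, ADAM17, the sheddase that releases TNF and cytokine receptors from the cell surface, and CASP8, encoding caspase-8, were both lower. ADAM17 fell from 1972 ± 329 to 1185 ± 56.2 and CASP8 from 1124 ± 120 to 823 ± 22.8 normalized counts (± SD of 3 samples each), with log2 fold changes of -0.72 ± 0.111 (SE, limma adjusted p = 4.11e-05) and -0.44 ± 0.103 (SE, limma adjusted p = 0.00166) in limma. Each kept its call under the 4 other scalings, with log2 fold changes between -1.09 and -0.51 for ADAM17 and between -0.82 and -0.23 for CASP8. PYCARD, the adaptor of the inflammasome that activates caspase-1, was at the floor in all 6 samples.

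Of the transcription factors, ELF3, an epithelial ETS factor, was lower, at 4692, 4131 and 4693 normalized counts in the WT samples and 467, 489 and 400 in the p21-/- samples. The log2 fold change was -3.32 ± 0.101 (SE, limma adjusted p = 1.9e-13). JUN, a subunit of AP-1, was called higher with 225, 757 and 578 for WT replicates 1, 2 and 3 and 978, 817 and 902 in the p21-/- samples. WT replicate 1 stood below the other WT samples, and the log2 fold change of 0.96 ± 0.293 (SE, limma adjusted p = 0.0122) was 0.44 without it. HIF1A, the hypoxia-inducible factor, had a log2 fold change of 0.38 ± 0.109 (SE, limma adjusted p = 0.00862), which was 0.23 without WT replicate 1. The calls of JUN and HIF1A were lost with scaling to housekeeping candidates (adjusted p = 0.0944 and 0.982), in an ordinary linear model (0.271 and 0.137), with the floor subtracted (0.205 and 0.0965) and with a common floor (0.215 and 0.0968). JUN also lost it with quantile normalization (0.1) and with a constant prior variance (0.0535).

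Of the 10 measured genes of chemokine receptor signalling, 2 were called higher and 6 lower, beside 21.8% and 26.0% of all 770 genes. The largest differences were those of PIK3CD, a phosphoinositide 3-kinase subunit, PTK2B, a kinase related to focal adhesion kinase, and RAC2, a small GTPase known mainly from blood cells. PIK3CD had 202, 176 and 212 normalized counts in the WT samples and 63.7, 51.9 and 69.0 in the p21-/- samples, a log2 fold change of -1.67 ± 0.174 (SE, limma adjusted p = 5.82e-07). PTK2B fell from 345 ± 30.3 to 147 ± 13.7 (± SD of 3 samples each), with a log2 fold change of -1.22 ± 0.149 (SE, limma adjusted p = 3.22e-06). RAC2 had a log2 fold change of -0.79 ± 0.130 (SE, limma adjusted p = 7.74e-05), and of -0.47 (adjusted p = 0.0588) after quantile normalization. SRC, a kinase of many receptors, was at -0.31 (adjusted p = 0.0274), and 10 of 20 alternatives ended that call. Among these were 3 of the 4 other scalings and the fits without WT replicate 2 (adjusted p = 0.0552), WT replicate 3 (0.0885) or p21-/- replicate 1 (0.149). The other genes of the list above the floor were below 0.30 in size, with RAC1 (-0.24) and RHOA (-0.29) called lower, CDC42 (0.28) and PTK2 (0.25) called higher and ROCK1 not called. With scaling to housekeeping candidates CDC42 and PTK2 turned to -0.0922 and -0.125, without a call, and with median scaling RAC1 and RHOA lost theirs at -0.0211 and -0.0712. RAC1 and RHOA also lost theirs with a trimmed mean of M values (limma adjusted p = 0.243 and 0.103). A constant prior variance in limma ended the calls of RAC1 (adjusted p = 0.0786), CDC42 (0.0516) and PTK2 (0.0664). Leaving out 1 p21-/- sample also ended calls: RAC1 and PTK2 lost theirs without replicate 1, 2 or 3, CDC42 without replicate 1 or 2, and RHOA without replicate 3.

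**Figure D4:**
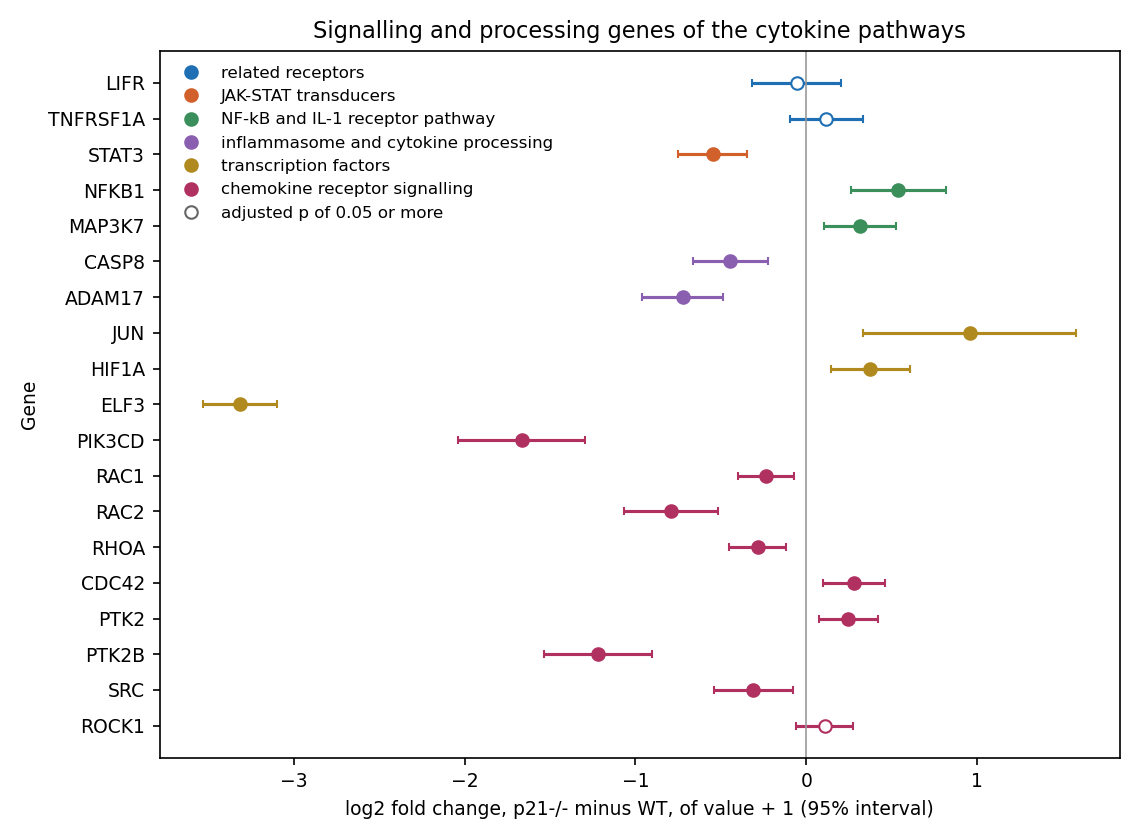
Log2 fold change, p21-/- minus WT, of value + 1 with 95% intervals from limma, for 19 of the 20 genes of these lists that were above the floor in all 6 samples (1 is not reported), coloured by list, with open points where the adjusted p was 0.05 or more. ELF3, PIK3CD and PTK2B lie at -3.32, -1.67 and -1.22, and JUN has the widest interval.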

How the data were processed

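RNA was counted in 3 samples of HCT116 WT and 3 of p21-/- cells on the NanoString PanCancer Progression Panel, and samples were grouped by the genotype in their labels. The deposited values are a signal, made by the authors with nSolver 3.0 from barcode counts through positive control and housekeeping gene normalization, and low values were set to a floor. They are called normalized counts here. The 6 positive and 8 negative controls of the same table are raw counts. Barcode counts were recovered with 1 factor per sample, and 100% of unfloored values below 500 came out whole within 0.1 count. Floor values were not scaled by it, so the limit of a floored value is the floor or, where higher, its product with the factor. A count test on recovered values was not used, since floored genes have no count.

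All 770 genes were tested in R 4.3.3 (limma 3.58.1) as log2(value + 1), with an intensity trend, no filter, no covariate, two-sided, and Benjamini-Hochberg adjustment over all genes. Fold changes on this scale understate changes of low genes. All 27 genes are named, with values for those above the floor in every replicate of 1 line, and of each pathway list up to 4 called genes of largest change are given with values. Genes and lists were chosen with earlier results of these data known. NanoStringDiff on raw counts, the study's method, was not used here. The result of 1 pathway gene is not reported here.

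Alternatives were other pseudocounts, filters, scalings, variance models, the replicate number as a block, each sample left out in turn, and other treatments of the floor. Symbols of all 27 genes matched the NCBI gene table. Promoter sequences are from RefSeq.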

Additional observations from a re-analysis of the deposited data

How the results depend on the processing

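The calls of IL18 and CXCL8 as lower held under all 20 alternatives, with log2 fold changes of -4.88 to -4.16 for IL18 and -3.23 to -1.58 for CXCL8, and between -4.55 and -4.33 and between -1.94 and -1.62 with each sample left out in turn. Each sample left out gave 1 gene higher and 2 lower of the 27, and 143 to 177 higher and 187 to 219 lower of all genes. Samples with 1 number in both lines showed no joint deviation (correlations of 0.076, -0.054 and 0.052 over 446 genes), and with the replicate block 1 and 2 of the 27 and 161 and 202 of all genes were called. For IL18 limma gave an adjusted p of 9.04e-183 with the block and 2.28e-24 without WT replicate 1, against 1.9e-13 in the main fit. Such fits relied more on spread shared across genes, so their calls are a weak check. Of the pathway genes RAC1 lost its call under the block (-0.235, adjusted p = 0.0558). The number called higher of the 27 was 2 with a trimmed mean of M values, 3 with median scaling, 2 with the floor subtracted and 0 among genes above the floor in all samples, a set of 4 of the 27 that does not hold CXCR4. Scaling to housekeeping candidates gave 23 of the 27 lower (97 genes higher and 523 lower in all), and floor values at the sample limit gave 17 (168 higher and 392 lower in all, 30% higher). Both contain the 12 genes without a value above the floor, since both alternatives move the floored values of the lines apart. Above 2 times the floor, 3 genes instead of 8 were detected in all p21-/- samples. Signs turned for IL11 with median scaling (0.0482) and the floor subtracted (0.41), for IL15 with median scaling (0.0252) and quantile normalization (0.0085), for CXCL17 and CXCR3 with housekeeping scaling (-0.12 and -0.11) and with floor values at the limit (-0.0741 and -0.0697), for IL10RA with housekeeping scaling (-0.25) and for MAP3K7, CDC42 and PTK2 with housekeeping scaling (-0.0589, -0.0922 and -0.125). A common floor at the highest sample limit, 44.9, was chosen after seeing the data. It left the counts of the 27 at 1 and 2, and gave no value for CXCR3, all of whose values lay under it. The floor limits what can be said of the low genes.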
